A study of Mus musculus with 22 samples.

Results

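The mouse genes Noct, Slc38a6, Sirt5, Rab3gap1, D10Wsu102e, Lrrc8d, Wdr31, Olfr784, Gm9864 and Gm10040, 10 in all, carry stretches of near-identical sequence in their annotated transcripts. They were picked by gene symbol, and all 10 have a row among the 34866 genes of the deposited estimated-count tables. In the whole-number count table of cartilage, which lists 23911 genes, 8 of the 10 have a row, and Gm9864 and Gm10040 have none. The 10 genes were chosen by measured values of these same data: their genotype differences, their share of each library and the gap between both kinds of cartilage count. Those values are therefore given below as a description, with no p-value. Tests are given only for contrasts that the choice did not use.

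RNA was sequenced from 22 mouse samples in 6 groups. Primary chondrocytes from knee cartilage of mice at postnatal day 3 to 5 were either untreated (day 0, 3 control and 3 cKO samples) or given BMP2 at 100 ng/µl for 3 days (day 3, 4 control and 4 cKO samples). Cartilage treated with collagenase came from mice at postnatal day 5 (4 samples of each genotype, 2 from males and 2 from females). Control cultures are labelled Dnmt1 flox, with no Cre named, and cKO cultures Prrx1-Cre;Dnmt1 flox/flox. The cartilage samples are labelled flox and cKO, with Prx1 and Dnmt1 in their titles. Prrx1-Cre acts in limb mesenchyme and its descendants, so cells from other lineages in a sample could keep Dnmt1. The labels call the samples biological replicates but do not say which shared a litter, so p-values measure the spread between these samples. All control cartilage libraries lay in 1 sequencing pool and all cKO libraries in another, so pool and genotype cannot be told apart there.

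Dnmt1 copies DNA methylation onto the new strand at each cell division. In mouse cells DNA methylation and repressive histone marks keep retrovirus-like repeats silent, of which intracisternal A particle (IAP) elements are the best-known family, and cells that lose Dnmt1 are known to transcribe them. Copies of such a repeat are so alike that a short read from 1 copy can match many places. An annotated transcript that runs through a copy can then be credited with reads from elsewhere, depending on how matches to several places are counted. No repeat annotation was used here, and no repeat family is assigned to the stretches described next.

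The transcripts of the 10 genes were aligned with each other and with all annotated mouse transcripts (GENCODE M21, build GRCm38), keeping alignments of at least 200 bases at 90% identity or more. Of 45 possible pairs, 28 shared sequence, and every one of the 10 genes took part. The alignments ran from 239 to 3497 bases at 90.1 to 98.5% identity. The longest joined Noct and D10Wsu102e at 95.5%, and Noct and Slc38a6 shared 3243 bases at 98.5%. Noct and Slc38a6 each aligned with all 9 others, and Lrrc8d with only 2. The pseudogenes Gm9864 and Gm10040 were 97.1% identical over 1662 aligned bases, nearly their whole length.

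To show how close the copies are, a window of 30 bases present in 8 of the genes is printed here in the orientation of the Noct transcript that carries it. Capitals mark a base that differs from Noct. The window in Slc38a6, Rab3gap1, D10Wsu102e, Lrrc8d and Olfr784 is on the opposite strand of their transcripts.
Noct: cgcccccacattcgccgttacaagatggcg
Slc38a6: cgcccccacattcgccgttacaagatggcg
D10Wsu102e: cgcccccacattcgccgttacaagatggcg
Lrrc8d: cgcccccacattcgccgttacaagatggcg
Sirt5: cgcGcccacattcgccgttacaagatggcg
Rab3gap1: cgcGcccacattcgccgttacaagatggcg
Wdr31: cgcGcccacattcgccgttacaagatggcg
Olfr784: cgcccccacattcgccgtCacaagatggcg
In GRCm38 the window lies at chr3:51244893-51244922 in exon 1 of that Noct transcript, within its 5′ UTR. It lies in 3′ UTRs at chr12:73311335-73311364 (Slc38a6), chr13:43386804-43386833 (Sirt5), chr10:83472988-83473017 (D10Wsu102e) and chr10:129389141-129389170 (Olfr784). It lies in non-coding transcripts at chr1:127875378-127875407 (Rab3gap1), chr5:105729356-105729385 (Lrrc8d) and chr4:62449455-62449484 (Wdr31). The 4 genes in the first lines are identical over the window, and each of the other 4 differs by 1 base. The window holds 4 CpG, the dinucleotide that Dnmt1 methylates, or 5 where the capital G adds 1. Both pseudogenes share a different window with no mismatch, at chr2:107600011-107600040 and chr3:68733675-68733704.
Gm9864: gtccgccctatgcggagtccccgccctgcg
Gm10040: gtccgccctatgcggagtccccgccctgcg
By its bases alone, a read confined to either window could not be told apart between the genes that are identical there. Where a library keeps the strand, the first window differs in strand between Noct and the identical Slc38a6, D10Wsu102e and Lrrc8d.

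The stretches sat mostly outside coding sequence. In Noct, whose transcript has 9797 bases, the largest stretch covered bases 1406 to 4965 (chr3:51241611-51245170) within the 5′ UTR. In D10Wsu102e, a transcript of 123179 bases with 4 exons, the largest covered 3481 bases of the 3′ UTR. The longest Slc38a6 transcript with the stretch carried 3336 of its 3927 bases as shared sequence, of which 6 bases were coding. In Sirt5, Wdr31, Olfr784 and both pseudogenes the stretch reached the 3′ end of the transcript. It also did so in a shorter Slc38a6 transcript of 1546 bases. For Rab3gap1, Lrrc8d and Wdr31 the transcript with the stretch was annotated as a processed transcript, and each was 1 of 7, 10 and 9 transcripts of its gene. The RefSeq windows around gene starts (GRCm38.p6, 9 windows for 8 of the genes) held 1 to 31 CpG, beside a median of 7 over 32851 windows. By a looser alignment rule than that for transcripts, 0 of the 9 aligned with the transcript of another of the 10 genes. These windows need not cover the start of the transcript with the stretch. That of Noct lies at chr3:51224197-51224496, and the first shared stretch of its transcript begins at chr3:51240251.

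The orientation of the stretch split the genes evenly. Relative to Noct it ran the same way in Noct, Sirt5, Wdr31, Gm9864 and Gm10040, and the opposite way in Slc38a6, Rab3gap1, D10Wsu102e, Lrrc8d and Olfr784. In the large Noct stretch the longest run without a stop codon was 750 codons on the transcript strand and 105 on the other. In Slc38a6 it was 117 on the transcript strand and 644 on the other, and in D10Wsu102e it was 109 and 499. Gm9864 and Gm10040 had 551 and 548 codons on the transcript strand. In the other 5 genes no run passed 157 codons, and the strands did not divide by orientation: Lrrc8d, of the opposite orientation, had 157 on the transcript strand and 95 on the other, and Wdr31, of the Noct orientation, had 129 and 155. The stretch held more CpG per 100 bases than the rest of the same transcript in 5 of the 8 genes that have transcript outside it, with 5.76 against 2.28 in Lrrc8d and 3.82 against 2.05 in Sirt5. It held fewer in Noct, Slc38a6 and Rab3gap1.

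**Figure D1:**
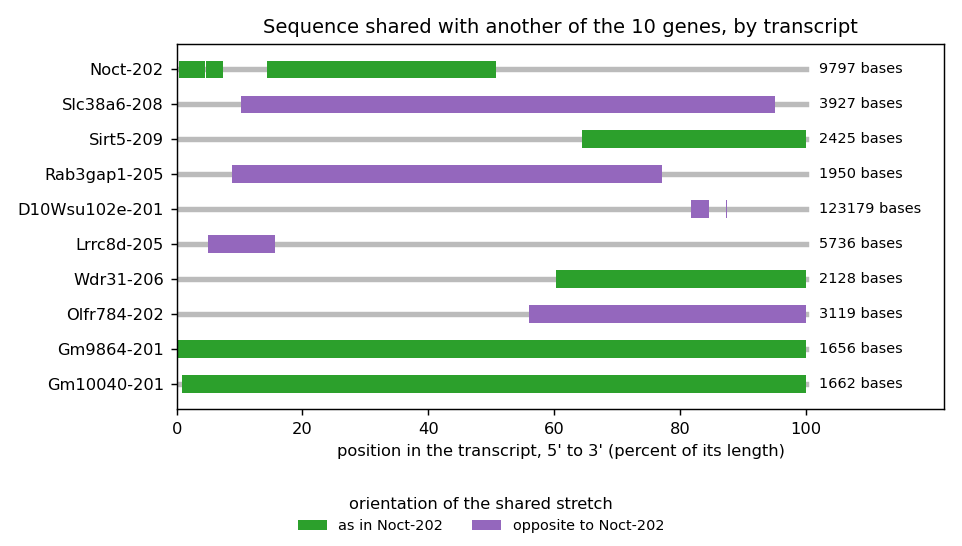
For 1 transcript of each gene, coloured bars mark the sequence shared with another of the 10 genes, along the transcript from 5′ to 3′ as a percent of its length (grey line; length in bases at the right). Green stretches run as in Noct and purple ones the opposite way; the 2 pseudogenes are shared over nearly their whole length, D10Wsu102e over 3.00% of it.

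Total counts per library were 41749546 to 51741669 at day 0, 14434320 to 18918905 at day 3, 1723750 to 2967830 in the estimated cartilage table and 1100198 to 1888896 in the whole-number cartilage table. Levels below are given as CPM, the count scaled to a fixed library size, with TMM factors within each table. They are not corrected for transcript length, so different genes are not ranked by them. Dnmt1 itself, the check of the genotype, ranged at day 0 over 147.1 to 158.9 CPM in control cultures and over 25.7 to 31.3 CPM in cKO cultures, and at day 3 over 64.9 to 83.5 and 11.6 to 36.4 CPM. In cartilage it was 34.5 to 48.6 against 11.8 to 14.3 by whole-number counts and 44.1 to 62.5 against 26.5 to 33.4 by estimated counts, so the groups did not overlap in any table. All 8 chondrocyte markers had reads in every group, but at day 0 their sum was 140340 to 148070 CPM for controls against 51537 to 62439 for cKO, and at day 3 99054 to 119710 against 1774 to 18044 CPM. At day 3 the 6 skeletal muscle markers summed to 1.40 to 1.86 CPM for controls against 126.5 to 1541 for cKO. At day 0 the 4 germ cell markers summed to 0.598 to 0.713 CPM for controls against 84.3 to 96.4 for cKO. The 3 adipocyte markers summed to 1.39 to 2.88 CPM for controls against 27.3 to 42.02 for cKO at day 3. In cartilage by estimated counts the chondrocyte sum was 62944 to 90535 CPM for controls against 28337 to 55604 for cKO, and the sum of the 3 osteoclast markers 116.3 to 375.1 against 49.4 to 94.0. Muscle markers summed there to 4.78 to 8.11 against 11.4 to 34.98 CPM, and germ cell markers to 0 to 3.47 against 88.9 to 111.7 CPM. In bulk RNA a change in the number of cells of a type and a change in RNA per cell cannot be told apart, and the part of these shifts in the results below was not tested.

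In untreated cultures all 10 genes were higher in cKO, and the groups did not overlap for any of them. Together they held 0.0540 to 0.0550% of each control library and 7.78, 7.98 and 8.34% of the cKO libraries. The means were 0.0544% ± 0.000496 and 8.03% ± 0.285 (SD, n = 3 each), a 147.6-fold difference. All 10 passed the call threshold of the fit over all 15530 genes (edgeR quasi-likelihood test, adjusted p under 0.05), where 33% of genes were called higher in cKO and 31.6% lower. Groups without overlap in the same direction were seen for 35.9% of genes. Since this contrast chose the genes, nothing is read from that comparison.

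Noct encodes nocturnin, a phosphatase of NADP(H) with a daily rhythm. Its level was 91.8, 105.9 and 113.5 CPM in control and 35670, 37174 and 38873 CPM in cKO cultures at day 0. The log2 fold change was 8.49 (SE 0.17). Noct alone held 3.86% of a cKO library on average, which was 48.1% of the 10 genes' summed counts. Slc38a6, of a family of amino acid transporters, had 58.5, 59.9 and 61.6 CPM in control and 13067, 13633 and 13947 CPM in cKO cultures. D10Wsu102e had 285.0, 291.0 and 297.6 CPM in control and 16555, 17152 and 17487 CPM in cKO cultures. Both rose with little spread, by log2 fold changes of 7.82 (SE 0.10) for Slc38a6 and 5.87 (SE 0.10) for D10Wsu102e. Noct, D10Wsu102e and Slc38a6 are the 3 genes with the longest shared stretches, and at day 0 they made up 48.1, 22.0 and 17.5% of the summed counts in cKO.

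The other 7 genes took smaller parts. Sirt5, a mitochondrial enzyme that removes succinyl groups from lysines, had 10.1, 10.2 and 10.7 CPM in control and 1141, 1164 and 1168 CPM in cKO cultures. Rab3gap1, the catalytic subunit of a GTPase-activating complex for Rab3, had 63.7 to 68.1 CPM in control and 3840 to 4101 in cKO cultures. Lrrc8d, a subunit of the volume-regulated anion channel, had 19.9 to 22.5 CPM in control and 351.1 to 380.5 in cKO cultures. Its log2 fold change of 4.13 (SE 0.05) was the lowest of the 10. Wdr31, a WD repeat protein, had 2.19 to 3.07 CPM in control and 272.6 to 287.4 in cKO cultures. Olfr784, an olfactory receptor gene, had 2.01 to 2.38 CPM in control and 281.9 to 299.8 in cKO cultures. The pseudogenes went from 6.19 to 7.89 CPM in control to 2410 to 2574 in cKO for Gm9864, and from 1.24 to 1.46 to 1003 to 1084 for Gm10040, which had the highest log2 fold change of the 10 at 9.58 (SE 0.07). The median log2 fold change of the 10 genes was 6.90, beside 0.01 over all genes tested.

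After 3 days of BMP2 the 10 genes again had levels in cKO cultures above all control cultures, and all 10 passed the threshold. Of the 13924 genes tested, 25.5% were called higher in cKO, 22.6% lower, and 25.2% had groups that did not overlap with cKO higher. The 10 genes held 0.0634 to 0.0848% of the control libraries. In the cKO libraries they held 4.45, 4.68, 5.03 and 8.34%. The cKO mean was 5.63% ± 1.83 (SD, n = 4), 77.6-fold the control mean of 0.0725%. One library, cKO replicate 4, stood above the other 3, and without it the cKO mean was 4.72% ± 0.295 and the fold 65.1.

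The higher level in cKO replicate 4 was seen across the genes. Noct had 19771, 21105 and 22413 CPM in cKO replicates 1 to 3 and 43061 CPM in replicate 4, with 98.9, 112.6, 138.3 and 176.9 CPM in controls. Sirt5 had 868.0, 792.1 and 1065 CPM in replicates 1 to 3 and 2019 CPM in replicate 4, with 12.03 to 14.2 CPM in controls. Each of the 10 genes had its highest level in cKO replicate 4. The same library had the lowest Dnmt1 level of the 4 (11.6 CPM, against 23.0 to 36.4) and the lowest summed chondrocyte markers (1774 CPM, against 12742 to 18044). Its summed muscle markers were also lowest (126.5 CPM, against 895.4 to 1541) and its summed osteoclast markers highest (376.5 CPM, against 99.3 to 116.3). The part of these differences in its higher share was not tested. Leaving it out, the log2 fold changes ran from 3.06 (Lrrc8d) to 8.64 (Gm10040), where the full set gave 3.61 (SE 0.40) and 8.95 (SE 0.38).

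**Figure D2:**
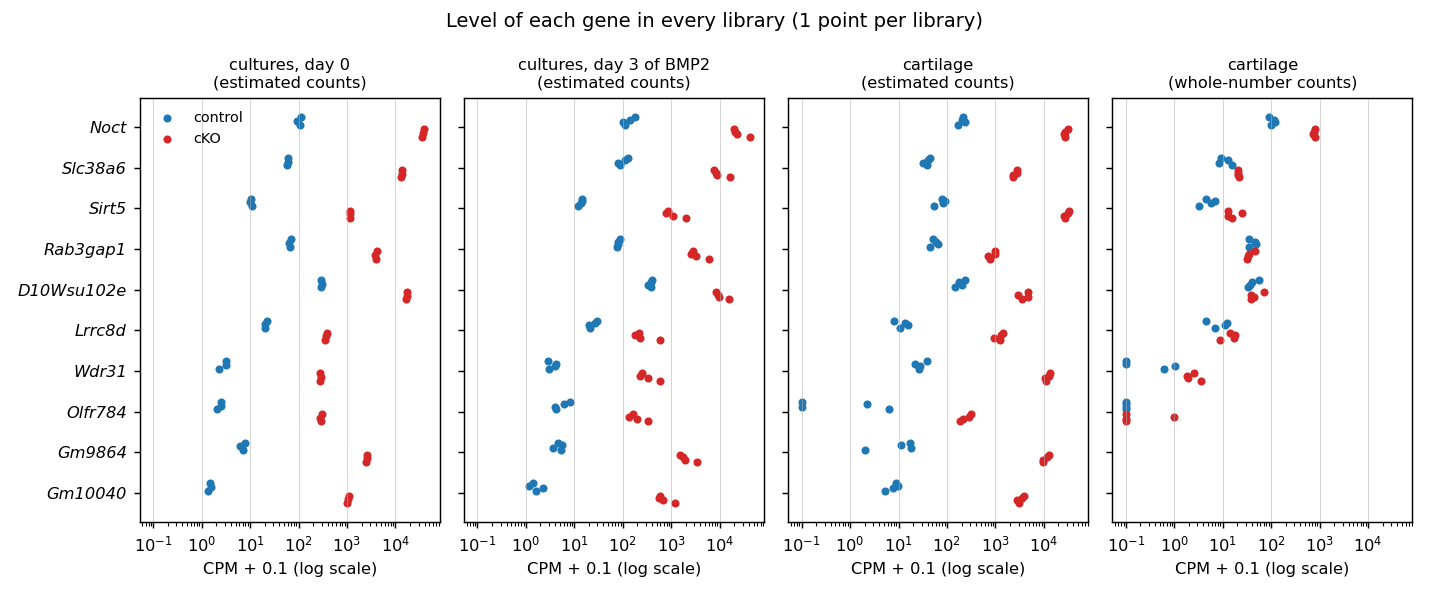
Level of each of the 10 genes in every library (x axis, CPM + 0.1 on a log scale; 1 point per library, blue control, red cKO) in the 3 estimated-count tables and the whole-number cartilage table. In the estimated tables the red points of every gene lie above the blue ones; in the whole-number table Rab3gap1, D10Wsu102e and Lrrc8d overlap, Olfr784 is almost at 0, and Gm9864 and Gm10040 have no row.

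In cartilage the picture depended on which deposited table was read, although both describe the same 8 libraries. By estimated counts the 10 genes held 0.0520 to 0.0739% of the control and 8.19, 8.34, 8.66 and 9.83% of the cKO libraries, with means of 0.0649% ± 0.00932 and 8.75% ± 0.746 (SD, n = 4 each) and a 134.9-fold difference. By whole-number counts the 8 genes with a row held 0.0190 to 0.0234% of the control and 0.0833 to 0.0973% of the cKO libraries, with means of 0.0207% ± 0.00188 and 0.0920% ± 0.00639 and a 4.45-fold difference. Without Noct, the whole-number means were 0.0104% in control and 0.0138% in cKO, so Noct carried nearly all of the difference there.

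**Figure D3:**
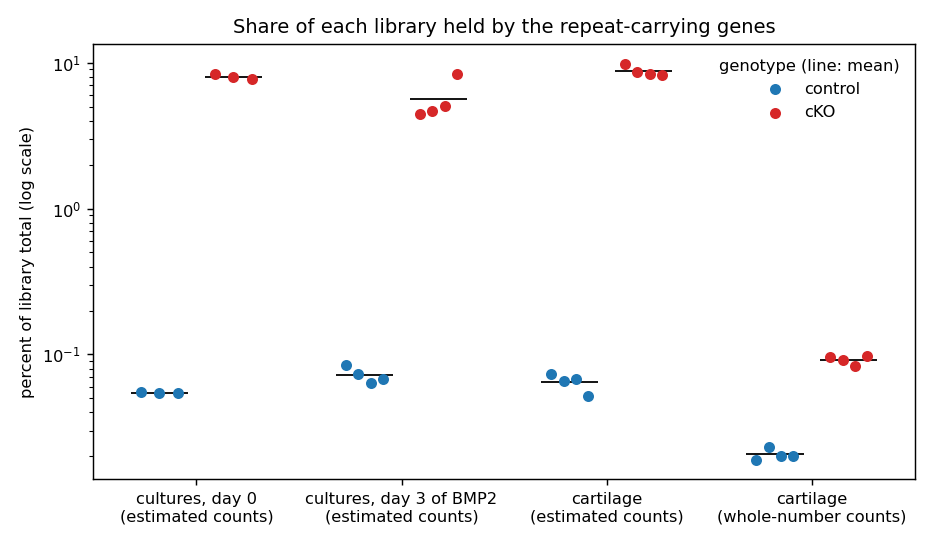
Percent of each library's total count held by the 10 genes (y axis, log scale; 8 genes in the whole-number table), 1 point per library with the group mean as a line. The estimated tables show cKO libraries between 4.45 and 9.83% and controls at most at 0.0848%; in the whole-number table cKO libraries reach at most 0.0973%.

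By estimated counts all 10 genes passed the filter and the threshold, with groups that did not overlap, in a fit where 3.56% of 10872 genes were called higher in cKO, 3.18% lower, and 7.27% did not overlap with cKO higher. By whole-number counts 6 of the 8 genes with a row passed the filter on low counts, and 2 of the 6 were called, both higher. There 3.15% of 8793 genes were called higher in cKO, 3.04% lower, and 7.12% did not overlap with cKO higher. Among the 8 genes the CPM of the groups did not overlap for 4, namely Noct, Sirt5, Slc38a6 and Wdr31. Of the 6 that passed the filter these were 3, since Wdr31 did not pass it. The raw counts of Slc38a6 did overlap. The choice of genes used both of these contrasts.

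Noct and Sirt5 were the 2 called by whole-number counts. Noct had 123, 133, 135 and 196 whole-number counts in control and 827, 887, 933 and 978 in cKO libraries. Its log2 fold change was 2.87 (SE 0.14), where the estimated counts gave 7.11 (SE 0.19). The estimated level of Noct was 165.5 to 232.8 CPM in control and 26000, 27015, 27689 and 32177 CPM in cKO libraries. Sirt5 had 6, 6, 6 and 8 whole-number counts in control and 14, 15, 18 and 29 in cKO libraries, so it passed the filter through the cKO libraries. Its log2 fold change was 1.76 (SE 0.33) by whole-number and 8.58 (SE 0.21) by estimated counts, which placed it at 54.5 to 89.8 CPM in control and 25819 to 32888 CPM in cKO. The direction was shared by both tables for these genes, while the size was not.

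None of the remaining genes was called by whole-number counts, and the counts of Wdr31 and Olfr784 were too few to tell. Slc38a6 had 9, 12, 15 and 30 whole-number counts in control and 23, 24, 25 and 25 in cKO libraries, a log2 fold change of 0.84 (SE 0.25) beside 6.02 (SE 0.14) by estimated counts. D10Wsu102e had 40 to 76 in control and 44 to 84 in cKO libraries, giving 0.20 (SE 0.19) beside 4.38 (SE 0.21). Rab3gap1 had 46 to 69 in control and 36 to 54 in cKO libraries, giving -0.18 (SE 0.18) beside 3.97 (SE 0.15). Lrrc8d had 6 to 14 in control and 10 to 20 in cKO libraries, giving 0.78 (SE 0.33) beside 6.70 (SE 0.21). Like Sirt5, Slc38a6 and Lrrc8d passed the filter only with the help of the cKO libraries. Wdr31 had 0, 0, 1 and 1 whole-number counts in control and 2, 2, 3 and 4 in cKO libraries, yet 10526 to 13201 CPM by estimated counts in cKO. Olfr784 had 0 in every control library and 1 count in 1 cKO library, yet 189.5 to 309.2 CPM by estimated counts in cKO. A count of 0 allows up to 3 counts, so no fold is given for these last genes.

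The same comparison within each library gave the ratio of estimated to whole-number CPM (per library total, without TMM factors), for genes with at least 10 whole-number counts. Over the 8059 to 9660 genes with both values, the median log2 ratio lay between -0.33 and 0.06, and 0.720 to 0.993% of genes had a ratio over 8. In cKO cartilage all 6 measured genes lay above the 99th percentile of their library in every library. Sirt5 had the highest ratio of all genes in each of the 4 cKO libraries, at 1119 to 2503 (median 1859). The medians were 117.8 for Slc38a6, 82.4 for Lrrc8d, 74.3 for D10Wsu102e, 34.5 for Noct and 22.5 for Rab3gap1. In control cartilage 0 of 5 measured genes lay above the 99th percentile in every library, and their medians were 4.62 for D10Wsu102e, 3.28 for Slc38a6, 2.03 for Noct, 1.54 for Lrrc8d and 1.43 for Rab3gap1. For these 5 genes the ratios of every cKO library were above those of every control library that had a ratio. Slc38a6 and Lrrc8d each had a ratio in only 3 control libraries. Sirt5 fell under 10 whole-number counts in all controls and has no ratio there, but its control values were 56.2 to 93.0 estimated against 3.18 to 6.80 whole-number CPM, so a gap was present in controls too. Wdr31 likewise had 22.6 to 41.98 estimated against 0 to 0.800 whole-number CPM in controls. The sources used here do not say how either table treated reads that match several places, and the part of that in the gap was not tested.

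**Figure D4:**
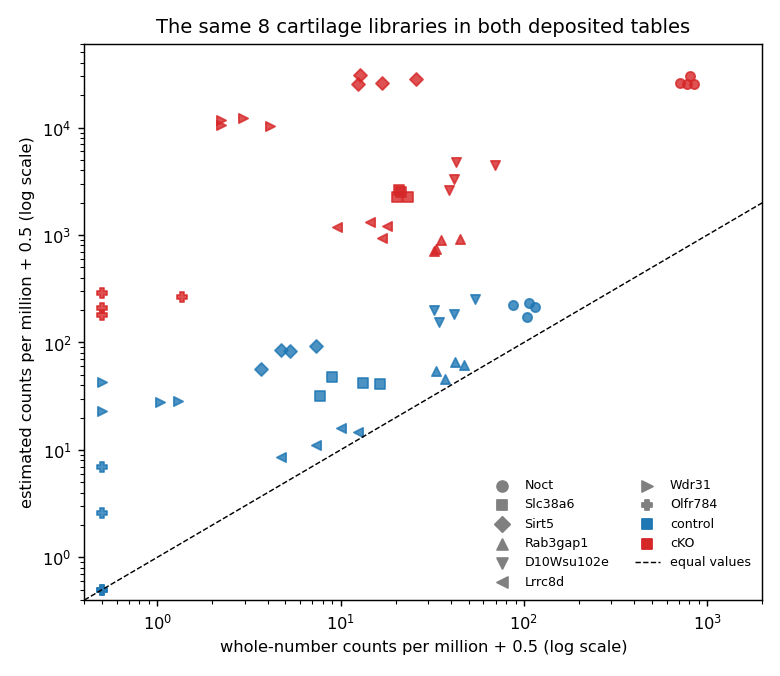
Each point is 1 gene in 1 cartilage library, with its whole-number CPM + 0.5 on the x axis and its estimated CPM + 0.5 on the y axis, each per library total without TMM factors, both on log scales (shape, gene; blue control, red cKO; dashed line, equal values). Control points of Rab3gap1 and Lrrc8d lie near the line, while cKO points rise above it, most for Sirt5 and Wdr31.

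The split by orientation of the shared stretch differed between the sample groups, and it is given as a description since it comes from the counts that chose the genes. The 5 genes with the Noct orientation held 22.1% ± 1.73 of the 10 genes' summed counts in control and 54.5% ± 0.301 in cKO cultures at day 0 (SD, n = 3 each). At day 3 they held 20.8% ± 1.94 in control and 55.0% ± 0.995 in cKO cultures (n = 4 each). In cartilage they held 52.4% ± 1.88 against 90.4% ± 0.83 by estimated counts, and 52.2% ± 3.15 against 87.1% ± 1.87 by whole-number counts, where Noct dominated. No control and cKO library overlapped in any table. Single genes weighed heavily in these sums. At day 0 Noct alone held 18.3% in control and 48.1% in cKO cultures, and D10Wsu102e 51.5 and 22.0%. At day 3 Noct held 17.6 and 47.1%. In cartilage by estimated counts Noct held 32.5 and 30.5%, and Sirt5 12.2 and 31.6%. The split in cultures thus followed mainly Noct, and the split in estimated cartilage counts did not.

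By estimated counts Sirt5, Wdr31, Gm9864, Gm10040 and Lrrc8d had a larger part of the summed counts in cKO cartilage than in cKO cultures. Of these, 4 had the Noct orientation and Lrrc8d the opposite one. Sirt5 made up 1.496% of the summed counts of the 10 genes in cKO cultures at day 0, 2.07% at day 3 and 31.6% in cKO cartilage by estimated counts. Wdr31 made up 0.360, 0.610 and 12.8%, and Gm9864 3.24, 3.85 and 11.9% in the same order. Gm10040 made up 1.36, 1.35 and 3.57%, and Lrrc8d 0.472, 0.503 and 1.33%. Slc38a6 went the other way, with 17.5, 18.1 and 2.76%. The cultures were sequenced from stranded whole-transcript libraries and the cartilage from 3′ libraries primed on poly(A), in tables scaled apart, so tissue and method cannot be told apart. In the estimated cartilage table the log2 fold changes of the 5 genes with the Noct orientation ran from 7.11 to 9.93, above all 5 of the others, which ran from 3.97 to 6.70. At day 0 the ranges overlapped, with 6.64 to 9.58 and 4.13 to 7.82. Since the stretches are near copies, these genes are not independent of each other.

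**Figure D5:**
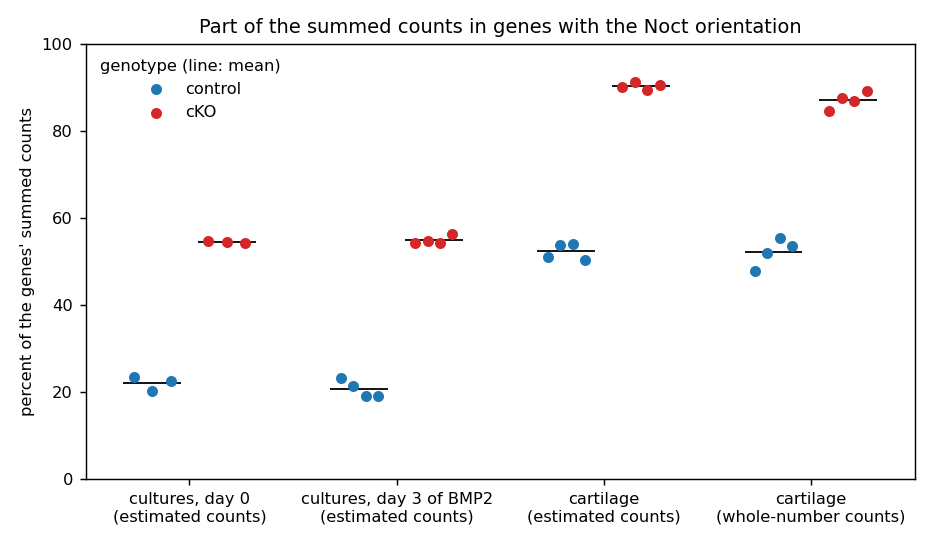
Percent of the summed counts of the 10 genes that fell in the 5 genes whose shared stretch runs as in Noct (y axis, from 0 to 100), 1 point per library with the group mean as a line, for the 4 tables. Controls sit near 20% in cultures and near 52% in cartilage, and cKO libraries near 55% and near 90%.

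Some of these genes also overlap others on the genome. Noct (chr3:51224447-51251644) shares its strand with the overlapping Gm38357, while D10Wsu102e overlaps Aldh1l2 and Lrrc8d overlaps Lrrc8dos and Rps15a-ps5 on the opposite strand. Whether the counting used strand is not given in the sources used here, so reads in these overlaps are of uncertain assignment.

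The contrasts of time and of sex were not used to choose the genes. The first contrast compared control cultures at day 3 with day 0, in a fit of the 14 culture libraries. Day, BMP2 and count table changed together there and cannot be told apart. Of the 10 genes, 2 were called higher at day 3 and 1 lower, in a fit where 28.1% of 14909 genes were called higher and 28.8% lower, so their share was not above that of all genes. Olfr784 rose from 2.01, 2.37 and 2.38 CPM to 3.90, 4.12, 6.02 and 8.22 CPM (log2 1.20, SE 0.31, edgeR adjusted p = 0.00543). Slc38a6 rose from 58.5, 59.9 and 61.6 CPM to 78.3, 88.8, 109.6 and 129.0 CPM (log2 0.66, SE 0.24, edgeR adjusted p = 0.0298). Gm9864 fell from 6.19, 6.86 and 7.89 CPM to 3.59, 4.50, 5.14 and 5.52 CPM (log2 -0.67, SE 0.25, edgeR adjusted p = 0.0364). The groups did not overlap for any of these 3, but the share of all genes without overlap is not given here, so nothing is read from that. Without control replicate 1 or 3 of day 0, or control replicate 1 of day 3, only Olfr784 was still called. Without cKO replicate 4 of day 3, which enters the shared estimate of spread only, 6 genes were called, adding D10Wsu102e, Sirt5 and Rab3gap1. The other 7 genes had log2 fold changes from 0.06 to 0.28.

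The sex contrast compared female with male cartilage, with genotype in the model. By estimated counts 0 of the 10 genes were called, in a fit where 0.0368% of genes were. All 10 estimates were below 0, from -0.06 (D10Wsu102e, SE 0.19) to -0.44 (Gm9864, SE 0.31). The genes share near-identical sequence, so these signs are not independent. The share of all genes below 0 is not given here, so nothing is read from the common sign. At an unadjusted p under 0.05 there were 2, Gm10040 (log2 -0.39, SE 0.14) and Slc38a6 (-0.26, SE 0.12), with edgeR adjusted p of 0.703 and 0.836. By whole-number counts 0 of the 6 tested genes were called, where 0.0341% of genes were, and 1 had an unadjusted p under 0.05 (D10Wsu102e, log2 -0.46, SE 0.19, edgeR adjusted p = 0.669). Whole-number estimates were below 0 for 4 of the 6. DESeq2 called 0 in both tables.

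Other genes carry the same stretches, so their counts are not independent of those of the 10. Such a gene could also pass the filter on low counts through the cKO libraries alone. The genotype counts below are therefore a description. By the alignment rule, 64 genes outside the 10 had a transcript that aligned with at least 3 of them, and 23 of the 64 had a row in the estimated tables. Of these, 22 were tested at day 0, where 20 were higher in cKO and 1 lower, with a median log2 fold change of 4.19 beside 0.01 over all genes, of which 33% were called higher. With alignments from 80% identity the list held more genes, 35 of 46 tested were higher, and the median was 1.42. At day 3, 19 of 22 were higher and 1 lower, with a median of 3.62, beside 25.5% of all genes called higher, and the median was 1.339 from 80% identity. With alignments of at least 500 bases only 1 gene was tested in each. In cartilage 18 of 21 tested were higher by estimated counts, beside 3.56% of all genes, with a median of 5.80 (3.51 from 80% identity). By whole-number counts 36 of the 64 had a row, 11 were tested and 3 were higher, beside 3.15% of all genes, with a median of 0.27. Those 3, named after their values were seen, were Kif24 (log2 2.27, SE 0.30), Trpc6 (4.27, SE 0.52) and Gm49701 (7.08, SE 0.77). Their counts per library are not given here, and they may have passed the filter through the cKO libraries alone. Kif24 encodes a kinesin and Trpc6 a cation channel. The gene lower at day 0, also named after its values were seen, was Cog6 (-0.55, SE 0.04), part of a Golgi tethering complex. In control cultures 7 of 22 were higher and 2 lower at day 3 than at day 0, where 28.1% and 28.8% of all genes were. The share of higher genes was thus near that of all genes, and the share of lower genes was below it. The median log2 fold change was 0.40, beside 0 over all genes.

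The 5 genes outside the 10 that aligned with the most of them were Gm42860 (10 of the 10, longest alignment 3984 bases), Gm44215 (9), Gm44231 (8), Gm47652 (7) and Gm29084 (7), the last 2 taken by total aligned bases from 9 genes tied at 7. None of these 5 had a row in the estimated tables. In the whole-number table Gm47652 had 0 to 1 counts in control and 4 to 8 in cKO cartilage. Gm42860 had 0 in control and 0 to 2 in cKO libraries, and Gm44231 had 0 and 0 to 1. Gm44215 and Gm29084 had no row there either. Of the other genes aligned with 7 of the 10, Kif24, Trpc6 and Olfr11 were tested in the estimated tables, with log2 fold changes of 4.11, 6.62 and 8.16 at day 0 and 8.66, 7.95 and 8.16 in cartilage. These 3 were named after their values were seen.

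Genes with a culture profile most like the median of the 10 were sought over the 14 culture libraries, by the root mean square difference of centred log2 CPM among 11855 genes. The closest 5 outside the 10 were ENSMUSG00000116474 (0.15), Glipr1 (0.34), Olfr11 (0.43), Trim5 (0.46) and Gm48368 (0.49). Among the 10 the same measure ran from 0.09 for Sirt5 to 1.43 for Lrrc8d. Olfr11 and Gm48368 carry the shared stretch by the rule of at least 3 alignments. No transcript of Glipr1 or Trim5 aligned with any of the 10 by that rule. ENSMUSG00000116474 has no transcript in the annotation used and was not searched.

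Factors known to hold repeats silent were counted from a list of 12 genes. At day 0, 7 of the 12 were called higher in cKO and 1 lower, at day 3 3 were higher and 1 lower, and in cartilage 0 were higher and 1 lower, of 10 tested by whole-number and 11 by estimated counts. Over all genes tested 33% were called higher at day 0 and 25.5% at day 3, so the day 3 count was at the level of all genes. In cartilage 3.15% were called higher by whole-number and 3.56% by estimated counts, so 0 was near that share too. Called lower were 31.6% at day 0, 22.6% at day 3, and 3.04 and 3.18% in cartilage. The gene that was lower each time was Dnmt1, the gene targeted in cKO. At day 0 Dnmt1 had a log2 fold change of -2.44 (SE 0.07), Uhrf1, which brings Dnmt1 to newly copied DNA, 0.86 (SE 0.06), the chromatin remodeller Hells 0.71 (SE 0.05), and Zfp809, a zinc finger protein that recruits Trim28 to retroviral DNA, 0.63 (SE 0.08). At day 3 Zfp809 was again higher at 1.01 (SE 0.09), and Uhrf1 (0.86, SE 0.41) and Hells (-0.12, SE 0.33) did not pass the test.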

How the data were processed

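The culture tables hold estimated counts per gene as deposited by the authors, partly not whole, from NEBNext Ultra II Directional libraries per the labels. The cartilage tables, from barcoded 3′ libraries (BRB-seq) per the labels, are deposited as estimated counts and as whole-number counts. The submitters' processing notes name the build GRCm38 and, for cartilage, UMI-tools 1.1.1, Trim Galore 0.6.7, HISAT2 2.2.1, featureCounts 2.0.1 and DESeq2 1.34.0, with no role per table. The tool behind the estimated counts is not given in the sources used here. Ribosomal RNA held 9.96 to 23.6% of whole-number cartilage libraries.

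Estimated counts were rounded and tested with edgeR 4.0.16 (R 4.3.3; TMM, filterByExpr at 10 counts and 15 in total, quasi-likelihood test, Benjamini-Hochberg over all genes tested, threshold 0.05). Genotype was fitted per table, with sex as covariate in cartilage. DESeq2 1.42.0 was an alternative. Scripts were tested on simulated data. Transcripts were aligned with blastn 2.17.0+ (megablast). Replicates differed beyond sampling noise, the lowest chi-square over its degrees of freedom being 3.22. Deviations of same-numbered replicates from their group means correlated at -0.145 to 0.265, highest for replicate 1 of cartilage by whole-number counts. In whole-number cartilage libraries of both genotypes ribosomal RNA held 20.4 to 23.6% in replicates 1 and 3. In replicates 2 and 4 it held 9.96 to 15.3%. Whether same-numbered replicates were handled together was not tested.

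The 10 genes and all lists were chosen with earlier results of these data known. Besides the 10 genes, the rule named Dnmt1, the 5 genes with the most similar culture profile (mean log2 CPM of at least 1), the 5 with most of the 10 aligned, and up to 4 silencing factors. Endothelial and leukocyte markers were also summed: in cultures they reached at most 1.91 and 14.6 CPM, and in cartilage 357.4 and 55.6 CPM.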

Additional observations from a re-analysis of the deposited data

Results flagged for a closer look

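At day 3, cKO replicate 4 stood apart from the other 3 cKO libraries in the share held by the 10 genes (8.34%) and in the levels of Noct (43061 CPM), Slc38a6 (15948 CPM) and Lrrc8d (579.2 CPM), in each case as the highest of the 4. In cKO cartilage by whole-number counts, replicate 1 stood apart for D10Wsu102e (70.5 CPM), and replicate 2 for Olfr784 (0.875 CPM), which is 1 count. These 6 were found among 73 sets of 4 values, and chance flags about 1 set in 20. No cause was tested.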

How the results depend on the processing

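The genotype differences chose the genes, so their calls under other settings support nothing and are not listed. In control cultures, leaving out 1 library moved the number called from 1 to 6 (3 with all), and Olfr784 was called in all 19 alternatives, Slc38a6 in 13 and Gm9864 in 15. With the replicate number as a block, 2 were called there and Slc38a6 was not (edgeR adjusted p = 0.0657); the replicate block changed no other call on these genes, and the genes called over all were 9724 at day 0, 5391 at day 3, 576 and 685 in cartilage by whole-number and estimated counts, and 8241 in control cultures.

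Genes called over all genes moved most in cartilage. Without a filter on low counts they were 1044 by whole-number counts (544 with it) and 1393 by estimated counts (733), and 362 to 630 and 465 to 781 with 1 library left out. The sex contrast called 3 and 4, but 93 and 164 without the filter, 7 and 10 with DESeq2, and 3 to 22 and 1 to 4 with 1 library left out. The cause was not tested.

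Without Noct the mean share was 0.0445% in control and 4.17% in cKO at day 0, 0.0596 and 2.97% at day 3, 0.0438 and 6.08% in cartilage by estimated counts, and 0.0104 and 0.0138% by whole-number counts. Without ribosomal RNA in the whole-number total, the shares were 0.0246 and 0.114%. With alignments of at least 500 bases, 12 pairs and 13 other genes shared sequence, and at 80% identity 36 pairs and 109 other genes.

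Whole-number counts of Sirt5, Lrrc8d, Wdr31 and Olfr784 were low enough that depth limits any statement on them.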
